A study of Mus musculus with 12 samples.

Results

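The genes described here encode the proteins of the mitochondrial ribosome. They were taken as every gene whose symbol in the platform annotation starts with Mrpl (48 genes, named for the large subunit) or Mrps (28 genes, named for the small subunit), 76 of the 19057 genes named on the array. A probe above background was found for 72 of them, 45 Mrpl and 27 Mrps genes, and these 72 were among 9131 genes tested. Each of the 72 was detected on all 6 transgenic and all 6 wild-type arrays, so no gene entered through 1 genotype alone. Probes for Mrpl19, Mrpl32 and Mrps14 were above background on 0 arrays and those for Mrpl45 on at most 7, and these 4 genes have no value here.

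The mitochondrial ribosome translates the few messenger RNAs of the mitochondrial genome, which code for core subunits of the respiratory chain and of ATP synthase. All of its proteins are encoded in the nucleus, made in the cytosol and imported. Some descend from bacterial ribosomal proteins and others were acquired in the mitochondrial lineage. Skeletal muscle holds many mitochondria, most of all in its oxidative fibres. Assembly needs the proteins together with mitochondrial ribosomal RNA, and a transcript level does not give the number of ribosomes.

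Mice transgenic for Nur77 (TG), the orphan nuclear receptor encoded by Nr4a1, were set against wild-type mice (WT). RNA of skeletal muscle came from 6 mice of each genotype after an overnight fast, and RNA of 2 mice was combined into each of 3 TG and 3 WT pools, so differences between the mice of a pool are not seen. The sample names carry the tag Gastr. Every pool was hybridised to 1 array on each of 2 chips, which gave 12 single-colour arrays, and the mean of its 2 arrays is the value of a pool. The labels do not name the promoter of the transgene, its founder line, or the age and sex of the mice. The Nr4a1 probe was above background on 0 of the 12 arrays, with signals between -16.2 and 8.2 in TG arrays and between -11.3 and 3.0 in WT arrays, so this probe does not check the genotype labels.

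All 7 skeletal muscle markers were detected, and their summed signal lay between 319000 and 337000 in TG pools and between 277000 and 310000 in WT pools. After normalisation 5 of the 7 had negative differences (median -0.03), and Myh4, a fast myosin, was the 1 that passed (-0.22, limma adjusted p = 0.0364). Both arrays of pool TG3 and the chip 2 array of pool WT1 stood apart from the others of their genotype on the second principal component of all tested genes. The summed signal of the 4 macrophage markers was 5360 in TG3, against 1080 and 1150 in the other TG pools, and it was 2180 in WT1, against 580 and 585 in the other WT pools. None of the 4 passed the test, and their part in the results below was not tested. Summed signals of the 5 fibroblast markers were 21700 to 29200 in TG pools and 21800 to 23700 in WT pools, and 0 of the 5 passed. The 5 endothelial markers summed to 1390 to 1530 in TG pools and 1110 to 1270 in WT pools, and Pecam1 was the 1 gene that passed of the 4 tested. Pax7 and Myf5 of satellite cells, Plin1 of adipocytes and S100b of Schwann cells were detected on 0 arrays, but Cd34, Adipoq and Mbp of the same lists were detected on all 12. These 3 had differences of 0.13, 0.42 and -0.46 and did not pass (adjusted p of 0.277, 0.242 and 0.119). In whole muscle, fewer cells of a type and less RNA per cell cannot be told apart.

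Promoter sequences are shown first for the called genes, those that passed the test below, whose upstream window held a match to either of a pair of motifs known from promoters of nuclear genes for mitochondrial proteins. RefSeq windows on GRCm38.p6 were found for 64 of the 72 tested genes (70 windows), and the 250 bases before each start were searched on both strands. The motif of nuclear respiratory factor 1 (NRF1), searched as GCGC, A, any base and again GCGC, matched 11.4% of the 70 windows, against 3.74% of all 32851 windows. The core motif of ETS factors, searched as CCGGAAG, matched 25.7% of the 70 windows, against 6.91% of all windows. Each of the 6 windows shown holds 1 match to 1 of the 2 motifs, in capitals, and is written 5′ to 3′ on the strand of the gene. A match is a description of the letters and not a site of binding. Mrpl12 and Mrps21, which were higher in TG muscle, held the NRF1 motif, both as its reverse complement:
Mrpl12, chr11:120484387-120484636, plus strand: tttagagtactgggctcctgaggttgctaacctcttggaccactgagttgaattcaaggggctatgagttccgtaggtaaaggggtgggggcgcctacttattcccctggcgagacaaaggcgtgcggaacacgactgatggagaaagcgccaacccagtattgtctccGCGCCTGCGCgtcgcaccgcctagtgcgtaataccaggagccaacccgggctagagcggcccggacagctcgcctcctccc
Mrps21, chr3:95871515-95871764, minus strand: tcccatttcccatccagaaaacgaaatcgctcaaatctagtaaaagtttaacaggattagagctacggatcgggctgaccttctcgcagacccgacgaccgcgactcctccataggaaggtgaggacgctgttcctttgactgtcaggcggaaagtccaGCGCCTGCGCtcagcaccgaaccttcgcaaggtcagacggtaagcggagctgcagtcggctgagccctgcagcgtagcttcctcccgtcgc
Mrpl34 and Mrpl22, also higher in TG muscle, held the ETS motif. The window of Mrpl22 precedes an alternative start that lies inside the gene as RefSeq bounds it, and its distance is counted from that start:
Mrpl34, chr8:71464676-71464925, plus strand: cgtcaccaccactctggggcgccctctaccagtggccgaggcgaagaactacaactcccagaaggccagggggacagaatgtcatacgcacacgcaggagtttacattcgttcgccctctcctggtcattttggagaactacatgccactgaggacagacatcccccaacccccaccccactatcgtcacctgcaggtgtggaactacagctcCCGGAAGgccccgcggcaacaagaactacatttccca
Mrpl22, chr11:58171414-58171663, plus strand: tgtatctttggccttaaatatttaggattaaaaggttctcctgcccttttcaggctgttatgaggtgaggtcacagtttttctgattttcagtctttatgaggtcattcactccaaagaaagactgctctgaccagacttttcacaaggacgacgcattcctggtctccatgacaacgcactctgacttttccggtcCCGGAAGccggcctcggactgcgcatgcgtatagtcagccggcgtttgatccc
Mrpl3 and Mrps26, which were lower in TG muscle, held the ETS motif too, the second as its reverse complement:
Mrpl3, chr9:105053018-105053267, plus strand: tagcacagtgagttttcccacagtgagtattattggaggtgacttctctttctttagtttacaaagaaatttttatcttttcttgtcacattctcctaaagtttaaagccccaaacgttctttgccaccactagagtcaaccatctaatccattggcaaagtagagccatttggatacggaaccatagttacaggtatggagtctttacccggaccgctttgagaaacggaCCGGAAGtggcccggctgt
Mrps26, chr2:130563507-130563756, plus strand: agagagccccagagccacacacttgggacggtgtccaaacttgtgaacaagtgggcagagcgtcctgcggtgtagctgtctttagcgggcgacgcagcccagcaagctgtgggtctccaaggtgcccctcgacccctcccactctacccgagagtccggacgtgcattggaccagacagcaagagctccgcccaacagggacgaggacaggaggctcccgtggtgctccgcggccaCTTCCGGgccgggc
The first base of the match lay 81 (Mrpl12), 91 (Mrps21), 37 (Mrpl34), 53 (Mrpl22), 19 (Mrpl3) and 14 (Mrps26) bases before the start.

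Of the 8 genes with the NRF1 motif, 2 were called higher and 0 lower. Of the 18 genes with the ETS motif, 2 were called higher and 2 lower, so the ETS motif occurred among the genes called in both directions. Regardless of motif, 7 of the 64 genes with a window were called higher and 7 lower, and 28.0% of all genes were called in either direction. The NBRE, the response element that Nur77 binds as a monomer, was searched as AAAGGTCA and matched 0 of the 70 windows, against 1.34% of all windows. The element of the estrogen-related receptors (TCAAGGTCA) also matched 0 of the 70, against 0.387% of all windows. The motif of YY1, a zinc finger factor, matched 1 of the 70 windows (1.43%), that of Mrps11, against 0.301% of all windows.

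The first question was how many mitoribosomal transcripts differed between TG and WT muscle, and which way. Of the 72 genes, 9 were higher and 8 were lower in TG muscle at an adjusted p below 0.05 in limma, with adjustment over all 15708 probes kept, and 55 did not pass. That is 23.6% of the genes called, against 28.0% of all 9131 tested genes, a share near the background under this processing. In each direction the counts of 9 and 8 stood against 12.1% of all genes called higher and 15.9% called lower. With signals floored at 10 in place of the background correction the split was 5 higher and 5 lower. With floored signals scaled to each array's 75th percentile in place of quantile normalisation it was 0 higher and 3 lower. These splits are 13.9% and 4.17% of the 72, against 22.8% and 21.2% of all genes in the same fits. With no filter on detection 22.4% of the 76 genes were called, against 12.8% of all genes. The distance from the background thus varied with the processing. The called differences were small. The 9 rises were 1.21- to 1.31-fold and the 8 falls were 1.18- to 1.32-fold, and 0 of the 72 genes differed by 1.5-fold or more, which 9.29% of all genes did. Differences of 1.2-fold or more were found in 19 of the 72 genes, against 34.9% of all genes.

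As a group the transcripts were balanced around a value close to 0. The median log2 difference of the 72 genes was 0.04, with 41 positive and 31 negative differences, against a median of -0.02 and 47.7% positive over all genes. Single differences ran from -0.40 for Mrps17 to 0.39 for Mrpl34. In 18 genes all 3 TG pools lay above all 3 WT pools, which was so for 20.6% of all genes, and in 12 all 3 TG pools lay below them, which was so for 27.0% of all genes. Together these made up 41.7% of the 72, against 47.6% of all genes. The pools of the other 42 genes overlapped. Every 95% confidence interval of the 55 uncalled genes lay within a 1.5-fold change either way, and the widest bounds over the 72 genes were 1.51-fold. These bounds hold on the background-corrected scale only, on which differences between dim probes are shrunk. Mrpl35, for example, had mean deposited signals of 154 in TG and 214 in WT pools but was 1.22-fold lower after normalisation.

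**Figure D1:**
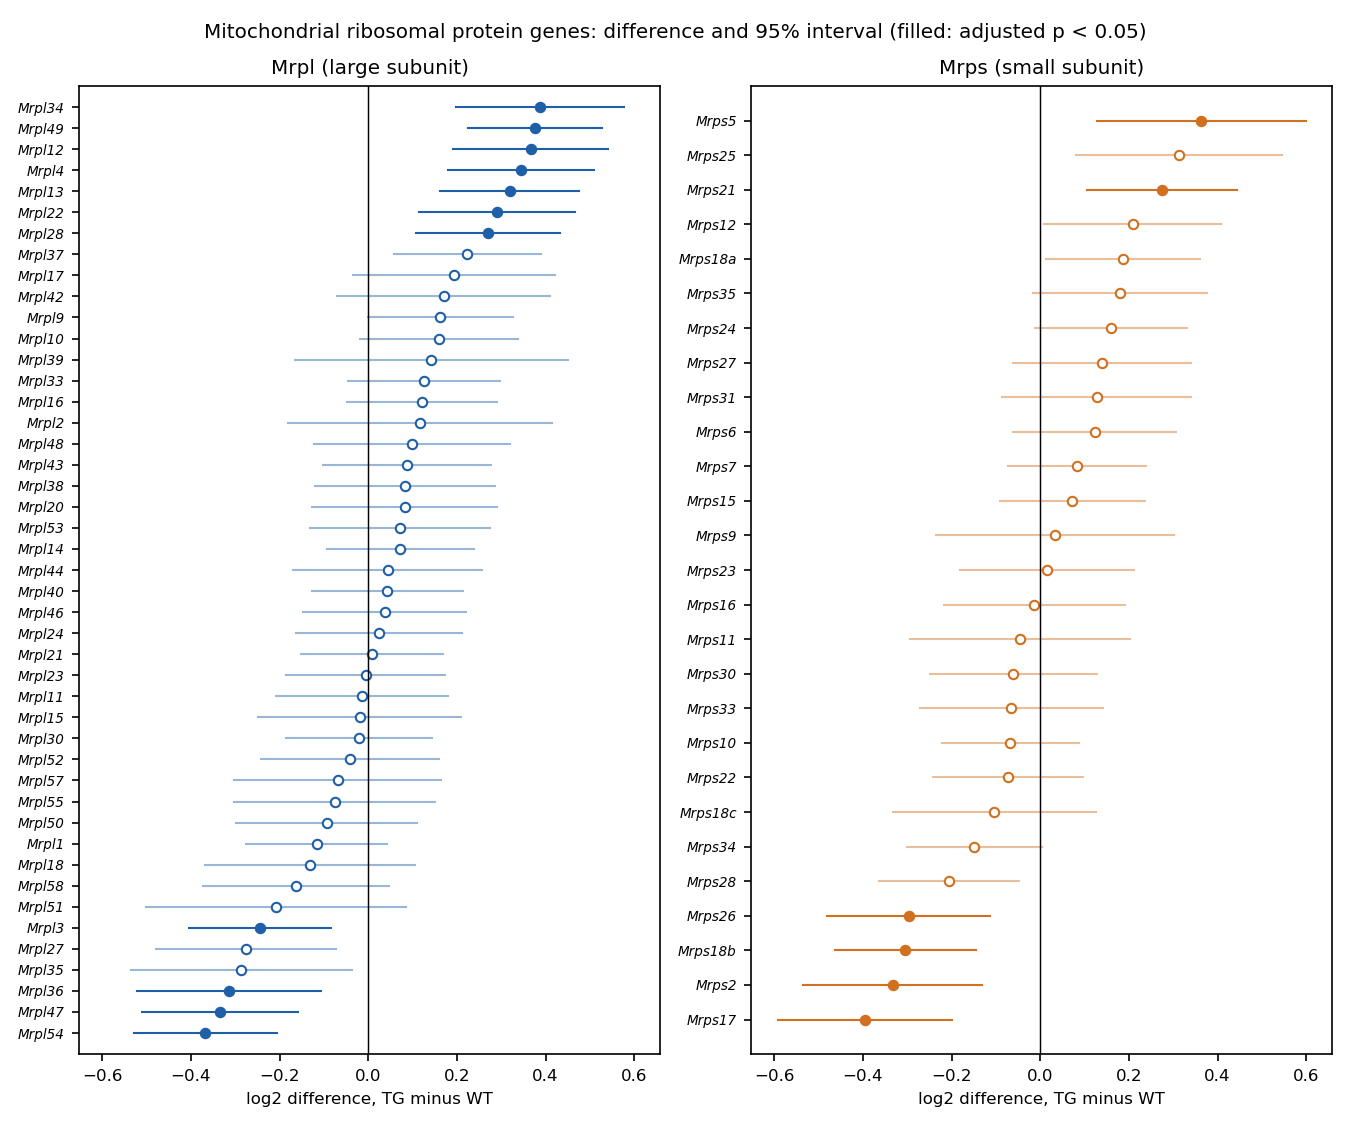
Log2 difference (TG minus WT) of the 72 Mrpl and Mrps genes with 95% confidence intervals, Mrpl and Mrps genes in separate panels, called genes filled. Rises and falls stand side by side in both panels, from -0.40 for Mrps17 to 0.39 for Mrpl34.

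Among the large-subunit genes, 7 of 45 Mrpl genes rose and 4 fell, against 12.1% and 15.9% of all genes. The median log2 difference of the Mrpl genes was 0.04. The rises came from several regions of the subunit. Mrpl34 encodes the counterpart of a small bacterial protein of the large subunit. Its normalised log2 signal was 11.57, 11.53 and 11.49 in TG pools, against 11.00, 11.21 and 11.22 in WT pools. The pools did not overlap, and the rise was 0.39 ± 0.08 (SE, n = 3 pools per genotype, limma adjusted p = 0.0125, 1.31-fold). Before normalisation its deposited signal was 2851, 2766 and 2745 in TG pools and 2100, 2380 and 2362 in WT pools.

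Mrpl12 encodes the stalk protein that contacts translation factors, and in human cells the protein was also found to bind the mitochondrial RNA polymerase. It had log2 signals of 12.70, 12.72 and 12.73 in TG pools, against 12.23, 12.38 and 12.43 in WT pools. The 3 TG pools lay within a narrow range above all WT pools, of which WT1 was the lowest, and the difference was 0.37 ± 0.08 (adjusted p = 0.0115). The other stalk genes tested, Mrpl10 and Mrpl11, had differences of 0.16 and -0.01 and did not pass.

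Mrpl4 and Mrpl22 encode homologues of bacterial proteins that line the exit tunnel for the nascent chain. Mrpl4 had log2 signals of 10.04, 10.10 and 10.14 in TG pools, against 9.68, 9.74 and 9.81 in WT pools, a rise of 0.35 ± 0.07 (adjusted p = 0.0114). Mrpl22 had 11.35, 11.35 and 11.49 in TG pools, against 11.03, 11.15 and 11.15 in WT pools, a rise of 0.29 ± 0.08 (adjusted p = 0.0276). In neither gene did a TG pool reach down to a WT pool. Mrpl23 and Mrpl24, whose bacterial counterparts sit at the rim of the tunnel, differed by -0.01 and 0.02 and did not pass.

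Mrpl13, whose bacterial counterpart joins the large subunit early in assembly, was at 12.63, 12.58 and 12.63 in TG pools, against 12.32, 12.33 and 12.23 in WT pools. It rose by 0.32 ± 0.07 (adjusted p = 0.0126), and both of its probes were called. Mrpl28, another homologue of a bacterial protein, was at 12.63, 12.59 and 12.59 in TG pools, against 12.27, 12.31 and 12.41 in WT pools, a rise of 0.27 ± 0.07 (adjusted p = 0.0271). Neither gene had overlapping pools, and in both the TG pools lay closer together than the WT pools.

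Mrpl49 encodes a protein with no bacterial counterpart. Its brightest probe gave 9.19, 9.23 and 9.17 in TG pools, against 8.79, 8.86 and 8.81 in WT pools, a rise of 0.38 ± 0.07 (adjusted p = 0.0058). The 4 probes of this gene disagreed: differences ran from -0.11 to 0.38, and only the brightest probe was called. Averaged over the 4 probes the difference was 0.13 and did not pass (adjusted p = 0.253).

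The 4 large-subunit genes that fell were Mrpl54, Mrpl47, Mrpl36 and Mrpl3. Mrpl54 encodes a protein specific to the mitochondrial ribosome. It was at 12.13, 12.13 and 12.23 in TG pools, against 12.47, 12.56 and 12.57 in WT pools. Its pools did not overlap, and the difference was -0.37 ± 0.07 (adjusted p = 0.00836). The deposited signals were 4308, 4288 and 4644 in TG pools and 5830, 6165 and 6163 in WT pools. Mrpl54 passed under 19 of 20 alternative settings, the exception being chip 2 alone.

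Mrpl47 encodes a homologue of a bacterial protein that lies beside the tunnel exit. It was at 10.53, 10.62 and 10.46 in TG pools, against 10.81, 10.95 and 10.85 in WT pools, a fall with a difference of -0.33 ± 0.08 (adjusted p = 0.0166), and both of its probes were called. Mrpl36, a small protein whose bacterial counterpart binds zinc in many species, was at 11.63, 11.59 and 11.38 in TG pools, against 11.75, 11.88 and 11.90 in WT pools. The difference was -0.31 ± 0.09 (adjusted p = 0.0365), with TG3 the lowest pool. Mrpl3 is the counterpart of a bacterial protein that reaches towards the peptidyl transferase centre. It was at 10.50, 10.52 and 10.46 in TG pools, against 10.67, 10.73 and 10.81 in WT pools, a difference of -0.24 ± 0.07 (adjusted p = 0.0364), and 1 of its 3 probes was called.

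**Figure D2:**
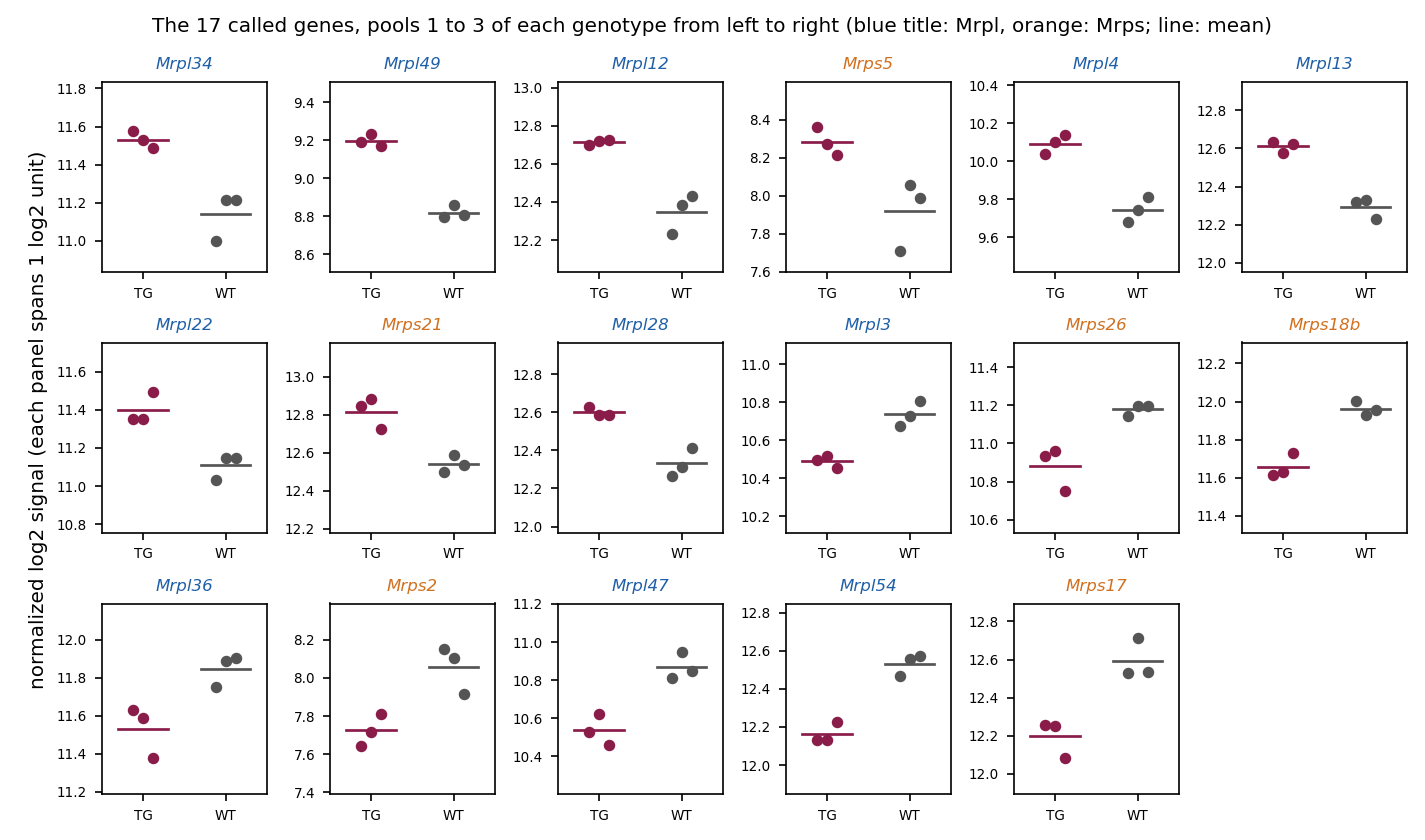
Normalised log2 signal of the 17 called genes, 1 panel a gene, with each point a pool (3 TG pools left of 3 WT pools) and lines for the means. In the 9 genes higher in TG muscle every TG point lies above the WT points, and in the 8 lower ones every TG point lies below them. The genes were called on these same values, so the separation is no separate support. Pools of 47.6% of all genes did not overlap.

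In the small subunit 2 of 27 Mrps genes rose and 4 fell, against 12.1% and 15.9% of all genes. The median log2 difference of the Mrps genes was 0.01. Mrps5, a homologue of a bacterial decoding-region protein whose Caenorhabditis elegans counterpart is known for an effect on lifespan, was at 8.36, 8.27 and 8.21 in TG pools, against 7.71, 8.05 and 7.99 in WT pools. It rose by 0.36 ± 0.10 (adjusted p = 0.0348), with WT1 the lowest pool. Mrps21, also a bacterial homologue, was at 12.84, 12.88 and 12.73 in TG pools, against 12.50, 12.59 and 12.54 in WT pools, a rise of 0.27 ± 0.07 (adjusted p = 0.0288). Neither gene had overlapping pools.

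Mrps17, which encodes a homologue of a bacterial protein bound to ribosomal RNA, showed the most negative difference of the 72 genes. It was at 12.25, 12.25 and 12.09 in TG pools, against 12.53, 12.71 and 12.53 in WT pools. The difference was -0.40 ± 0.09 (adjusted p = 0.0133), and the deposited signals were 4756, 4683 and 4190 in TG pools and 6068, 6845 and 5990 in WT pools. All 3 TG pools lay below the WT pools on both scales.

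Mrps2, a bacterial homologue on the back of the small subunit, was at 7.64, 7.72 and 7.81 in TG pools, against 8.15, 8.11 and 7.92 in WT pools, a difference of -0.33 ± 0.09 (adjusted p = 0.0278). Mrps26, specific to the mitochondrial ribosome, was at 10.94, 10.96 and 10.75 in TG pools, against 11.14, 11.20 and 11.20 in WT pools, a difference of -0.30 ± 0.08 (adjusted p = 0.0295). Both probes of Mrps26 were called, and neither gene had overlapping pools.

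The Mrps18 paralogues had differences of either sign. Mrps18b was at 11.61, 11.63 and 11.73 in TG pools, against 12.00, 11.93 and 11.96 in WT pools, and the difference was -0.30 ± 0.07 (adjusted p = 0.0159), with 2 of 3 probes called. Mrps18c had a difference of -0.10 with overlapping pools (adjusted p = 0.471). Mrps18a, which sits in the large subunit despite its name, had a difference of 0.19 with all TG pools above the WT pools (adjusted p = 0.105). The difference between the paralogues was not tested.

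How firmly a call stood differed between the genes. With each of the 6 pools left out in turn, 6 of the 17 calls held every time, those of Mrpl34, Mrpl49, Mrpl12, Mrpl4, Mrpl13 and Mrpl54. All of these but Mrpl54 lost the call with floored signals scaled to the 75th percentile and in the authors' deposited table. Mrpl49 also lost it when its probes were averaged. Mrpl34 and Mrpl4 lost the call on chip 1 alone, and Mrpl12, Mrpl13 and Mrpl54 on chip 2 alone. On those chips 24.2% and 10.1% of all genes were called. Among the fits with a pool left out, Mrps17 and Mrpl47 lost the call only without WT2, at adjusted p of 0.0579 and 0.0739. Mrps18b lost it without TG1, TG2, WT1 or WT2, at adjusted p between 0.0509 and 0.0569. Mrps2 and Mrpl28 lost it without the same pools, at adjusted p up to 0.103 and 0.0973. Mrps5 lost it without TG1, TG2, WT1 or WT3 (adjusted p up to 0.0917), and Mrps26 with any 1 WT pool left out (up to 0.102). Mrpl22 lost it without TG2 or with any 1 WT pool left out (up to 0.0824), and Mrps21 when any 1 pool other than TG3 was left out (up to 0.0933). Mrpl36 lost it when any 1 pool other than TG1 was left out (up to 0.124), and Mrpl3 with any 1 of the 6 left out (up to 0.114). No called gene changed sign with a pool left out. As the TG and WT pools of these genes did not overlap, this could not have come out otherwise. Fewer pools also mean less power.

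The threshold fell within a group of genes with similar values. Mrpl3 (adjusted p = 0.0364) and Mrpl36 (0.0365) lay just inside it. Just outside lay Mrpl27, with a difference of -0.28 ± 0.09 and an adjusted p of 0.0529, and Mrpl37, with 0.22 ± 0.07 and an adjusted p of 0.0543. In both, the pools did not overlap. Mrps25 was chosen after its values were seen: its difference was 0.31 ± 0.10 (adjusted p = 0.0544), and 1 of its 3 probes was called. The genes with the brightest probes, Mrps24, Mrpl33 and Mrpl42, had differences of 0.16, 0.13 and 0.17 and did not pass. Those with the dimmest, Mrpl57, Mrpl39 and Mrpl51, had differences of -0.07, 0.14 and -0.21 and did not pass either.

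The large and small subunits were then set side by side. By symbol 24.4% of the Mrpl genes and 22.2% of the Mrps genes were called, against 28.0% of all genes. A positive difference was found in 27 of 45 Mrpl genes (60%) and 14 of 27 Mrps genes (51.9%), against 47.7% of all genes. Mrps30 and Mrps18a belong to the large subunit by structure. Counted there, the large subunit had 7 rises and 4 falls among 47 genes and the small subunit 2 rises and 4 falls among 25, with the same medians of 0.04 and 0.01. The mean log2 signal of the Mrpl genes minus that of the Mrps genes, a quantity that can be read only between pools, was 0.07, 0.04 and 0.04 in TG pools, against -0.01, 0.03 and 0.04 in WT pools. The TG and WT ranges nearly met, at 0.0432 in TG2 and 0.0404 in WT3, and no test was made on these scores.

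The genes were also divided by descent, a division made after the values were seen. Of 42 homologues of bacterial proteins, 8 rose and 5 fell (31.0%), and of 30 proteins specific to mitochondrial ribosomes, 1 rose (Mrpl49) and 3 fell (Mrpl54, Mrps26 and Mrps18b), or 13.3%. Mrps18b is related to a bacterial protein by sequence but holds a position of its own in the mitochondrial ribosome, and was counted by position. The background was 28.0% for all genes, and the medians of the homologues and the specific proteins were 0.05 and 0.04. The difference between the classes was not tested.

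Small-subunit proteins with other names were seen as well. Dap3, a GTP-binding protein of the small subunit, was at 12.82, 12.94 and 12.70 in TG pools, against 12.39, 12.49 and 12.49 in WT pools, a rise of 0.36 ± 0.08 (adjusted p = 0.0166). Ptcd3 and Chchd1 had differences of 0.04 and -0.01 and did not pass.

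The mean log2 signal over the 72 genes was 11.09, 11.07 and 11.04 in TG pools, against 10.97, 11.08 and 11.06 in WT pools, so TG and WT pools overlapped. WT1 was the lowest of the 6 pools for 27 of the 72 genes and the highest for 4. TG3 was the lowest for 18 and the highest for 15. Relative to each gene's mean over the pools the median deviation in WT1 was -0.09, and in the other pools it lay between -0.01 and 0.04. Without WT1, 8 of the 72 genes were called (5 higher, 3 lower), and with WT1 taken from chip 1 alone and TG3 left out, 19 were called (11 higher, 8 lower). These are 11.1% and 26.4% of the 72, against 17.7% and 31.3% of all genes in the same fits.

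Each pool was measured on both chips, which allowed the difference to be read separately on each. The sign was the same on both chips for 58 of 72 genes (80.6%), against 79.9% of all genes. It was the same for all 17 called genes. These were called on the mean of the same 2 chips, so their equal signs are no separate check. On chip 1 alone 11 genes were called, against 24.2% of all genes, and on chip 2 alone 4, all higher, against 10.1% of all genes. Mrpl4 differed by 0.13 on chip 1 and by 0.56 on chip 2, and Mrpl22 by 0.11 and by 0.47. Dependence of the difference on the chip, tested with limma on differences between a pool's arrays, passed for 0 of the 72 genes and 0 of all 9131 genes after adjustment. At an unadjusted p below 0.05 it passed for 3 of the 72 (Mrpl4, Mrpl22 and Mrpl35), against 5.73% of all genes.

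**Figure D3:**
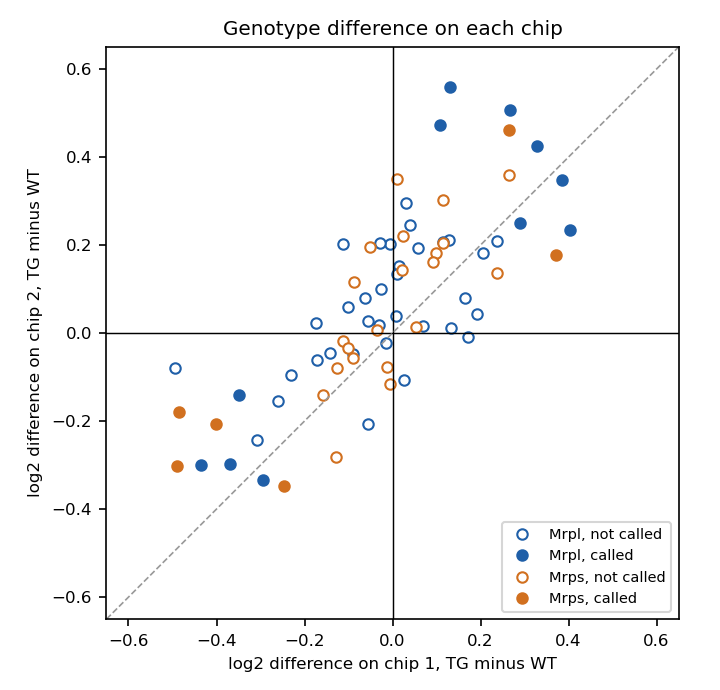
Log2 difference (TG minus WT) of each of the 72 genes on chip 1 (horizontal) and chip 2 (vertical), with called genes marked. The 17 called genes, which were called on the mean of both chips, all lie in the quadrants of equal sign. Mrpl4 and Mrpl22 lie above the diagonal.

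Several probes were available for 26 of the 72 genes. In 17 all probes gave differences of the same sign and in 9 they did not, and 0 genes had probes called in opposite directions. Mrpl15 had 5 probes between -0.29 and 0.33, of which 1 was called higher, and Mrpl38 had probes at -0.34, called lower, and at 0.08. The brightest probe of each of these genes was not called.

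Genes that work with the ribosome were examined next. Of 15 genes for steps of mitochondrial translation 2 rose and 0 fell, with a median log2 difference of 0.03. That is 13.3% called, against 28.0% of all genes (12.1% higher and 15.9% lower). Beside initiation, elongation, release and recycling factors, the list holds Lrpprc and Slirp, which stabilise mitochondrial messenger RNA, the activator Taco1, the formyltransferase Mtfmt and the membrane insertase Oxa1l. Gfm1, an elongation factor that moves the ribosome along the message, was at 9.20, 9.32 and 9.09 in TG pools, against 8.79, 8.96 and 8.92 in WT pools, a rise of 0.31 ± 0.09 (adjusted p = 0.0337). Tsfm, the exchange factor for elongation factor Tu, was at 9.11, 9.08 and 9.11 in TG pools, against 8.80, 8.90 and 8.88 in WT pools, a rise of 0.24 ± 0.07 (adjusted p = 0.0332). Their pools did not overlap. Mtif3, an initiation factor, had a difference of 0.20 and did not pass (adjusted p = 0.104).

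Of 22 genes linked to mitoribosome assembly, among them ribosomal RNA modifying enzymes, GTPases and the protease subunits Afg3l2 and Spg7, 0 rose and 2 fell, with a median of 0.00. That is 9.09% called, against 28.0% of all genes (12.1% higher and 15.9% lower). Ddx28, a helicase of large-subunit assembly, had a difference of -0.40 ± 0.12 (adjusted p = 0.0385). Rcc1l, which takes part in assembly, had -0.30 ± 0.09 (adjusted p = 0.0448). The pools of each gene did not overlap. Rpusd4, a pseudouridine synthase acting on the large ribosomal RNA, had a difference of 0.21 and did not pass (adjusted p = 0.0543).

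Aminoacyl-tRNA synthetases charge the transfer RNAs that the ribosome reads. Of 18 genes for charging mitochondrial transfer RNA, 4 rose and 0 fell, with a median of 0.10. That is 22.2% called, against 28.0% of all genes (12.1% higher and 15.9% lower). The list holds synthetases, with Gars and Kars among them, which also serve the cytosol, and the amidotransferase subunits Gatb, Gatc and Qrsl1, and the 4 that rose were synthetases. Lars2, the leucyl enzyme, was at 10.59, 10.65 and 10.84 in TG pools, against 9.17, 9.26 and 9.32 in WT pools. Its rise of 1.45 ± 0.09 (adjusted p = 4.43e-05) exceeded every difference among the 72 ribosomal protein genes. Fars2, the phenylalanyl enzyme, was at 11.97, 12.08 and 12.11 in TG pools, against 11.28, 11.33 and 11.31 in WT pools, a rise of 0.75 ± 0.07 (adjusted p = 0.000373). Mars2, the methionyl enzyme, rose by 0.44 ± 0.09 (adjusted p = 0.00916).

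Among 13 genes of mitochondrial transcription and biogenesis 2 rose and 1 fell, with a median of -0.04. That is 23.1% called, against 28.0% of all genes (12.1% higher and 15.9% lower). Ppargc1b, a coactivator of nuclear receptors in the PGC-1 family, was at 9.82, 9.65 and 10.19 in TG pools, against 9.12, 9.07 and 9.34 in WT pools, a rise of 0.71 ± 0.14 (adjusted p = 0.0103). Mterf2, which binds mitochondrial DNA, rose by 0.56 ± 0.07 (adjusted p = 0.00136). Pprc1, a further coactivator related to PGC-1, fell, with a difference of -0.46 ± 0.09 (adjusted p = 0.00806).

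For comparison, 7 of 33 complex I subunits rose and 0 fell, 29 of the 33 had a positive difference, and the median was 0.13. That is 21.2% called, against 28.0% of all genes (12.1% higher and 15.9% lower). Positive differences made up 87.9%, against 47.7% of all genes. Complex I contains subunits that the mitochondrial ribosome makes, but the genes counted here are nuclear. Of 56 proteins of the cytosolic ribosome 5 rose and 4 fell (16.1% called), with 22 positive differences and a median of -0.04. The Mrpl and Mrps genes, with 9 rises, 8 falls and a median of 0.04, lay between these lists by their median. No difference between lists was tested.

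**Figure D4:**
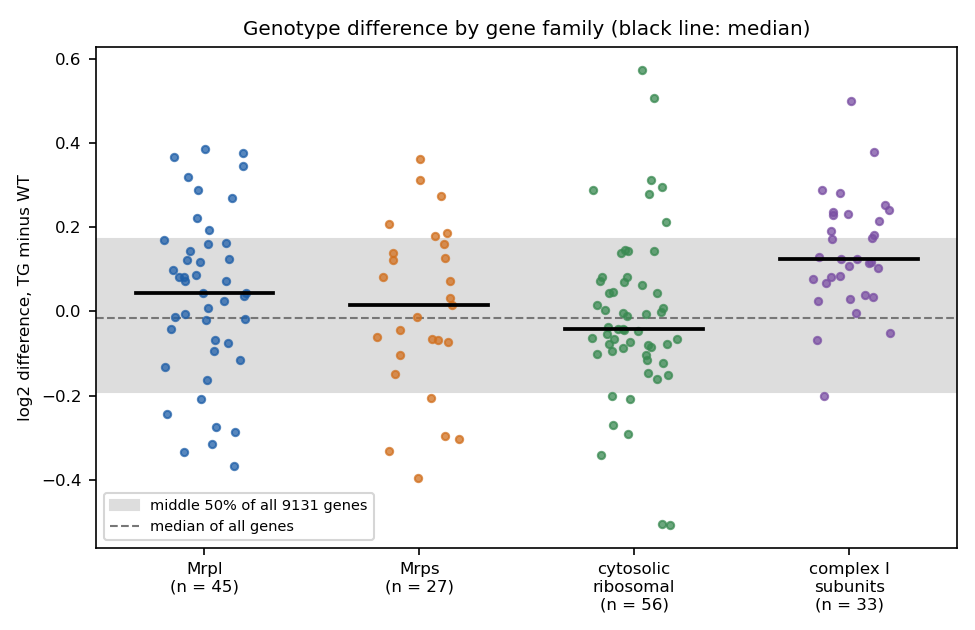
Log2 differences (TG minus WT) of single genes, each point a gene, for 45 Mrpl genes, 27 Mrps genes, 56 cytosolic ribosomal proteins and 33 complex I subunits, with black lines for the medians and a grey band for the central quartiles of all genes. The Mrpl and Mrps points spread to both sides of 0, and most complex I points lie above it.

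The balance of calls differed between ways of processing the arrays. With signals floored at 10, so without the background correction, and each array scaled to its 75th percentile, and likewise in the authors' deposited table, the 3 genes called were Mrpl54, Mrps18b and Mrps2, all lower, and 0 were called higher. Floored signals that were quantile normalised gave 5 higher and 5 lower. This setting differs from the floored and scaled signals in the normalisation only, and the cause of the different calls was not tested. Of all genes 21.2% were called with the floored and scaled signals and 22.8% with the floored and quantile normalised ones. With the floored and scaled signals and in the authors' deposited table, Mrpl12 differed by 0.33 and Mrpl34 by 0.31, and neither passed. Both genes passed with the floored and quantile normalised signals. The 75th percentile of the deposited signal, the divisor of that scaling, was 77.9 on the chip 1 array of TG3 and 74.1 on the chip 2 array of WT1, against 60.5 to 68.3 on the other arrays. The Mrpl median stayed above the Mrps median in all 20 alternative settings, by 0.01 to 0.06.

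**Figure D5:**
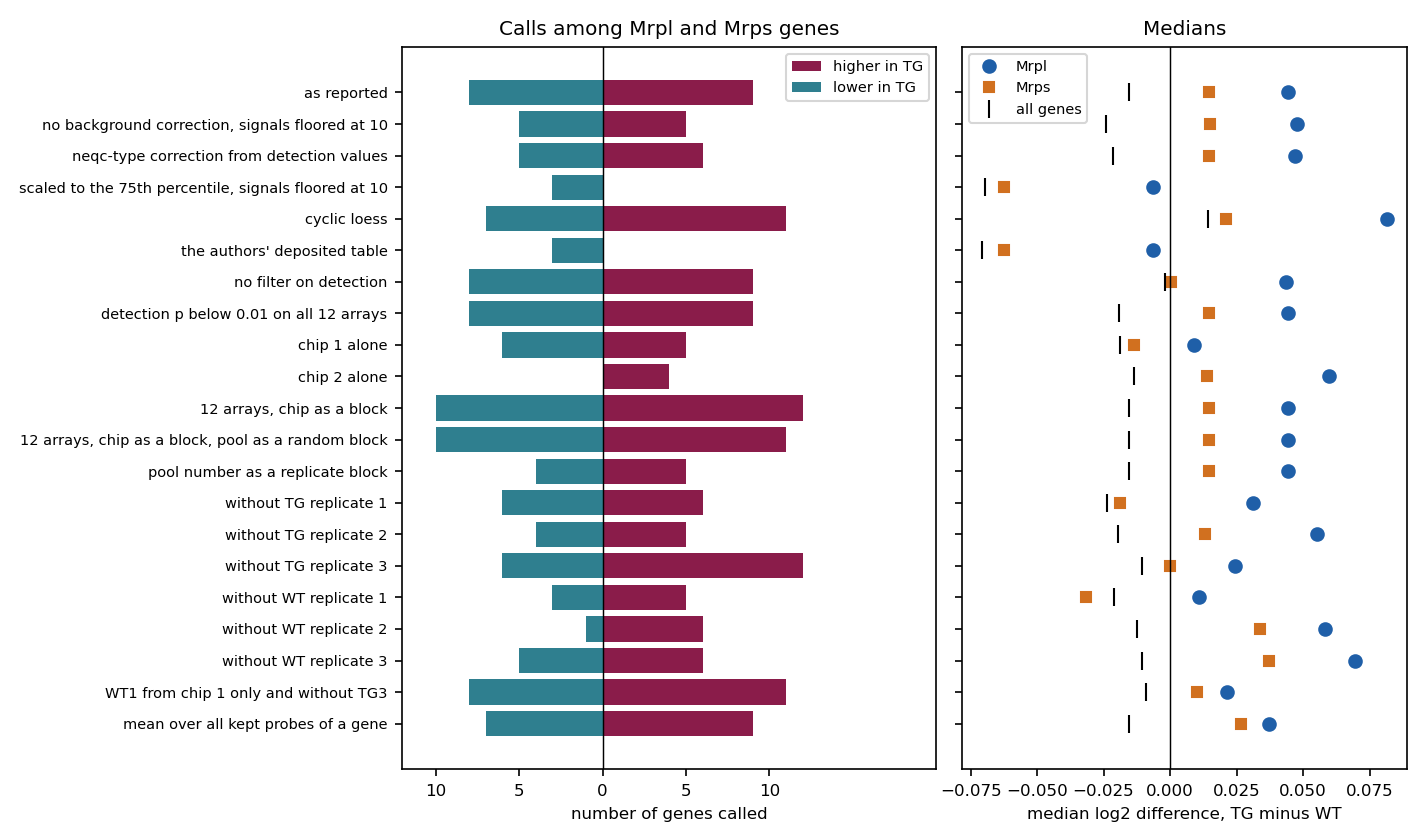
Number of Mrpl and Mrps genes called higher and lower in TG muscle (left) and median log2 differences of Mrpl genes, Mrps genes and all genes (right) as reported and under 20 alternative settings. Calls run from 3 to 22 of the 72 genes (4.17% to 30.6%), and from 10.1% to 37.7% over all genes. The Mrpl median lies right of the Mrps median in each setting, but the settings draw on the same 6 pools and are not independent.

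Several mitoribosomal genes lie head to head with another gene. By the RefSeq starts 24 of the genes had a neighbour on the opposite strand that starts within 1000 bases, and in 14 pairs both genes were tested. The differences had the same sign in 7 pairs and opposite signs in 7. In 3 pairs 1 gene was called and in 0 pairs both. Mrpl46 and Mrps11, 1 from each subunit, start 42 bases apart and had differences of 0.04 and -0.05. Mrpl47, called lower at -0.33, faces Ndufb5, a complex I subunit with a difference of 0.19 ± 0.09 that did not pass. Mrps5, called higher at 0.36, faces Zfp661, with a difference of -0.24 that did not pass. Mrpl37, at 0.22 and not called, faces Cyb5rl, which rose by 0.53. Mrps12, the decoding-centre protein, and its neighbour Sars2, the mitochondrial seryl-tRNA synthetase, had differences of 0.21 and -0.02, and neither passed.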

How the data were processed

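RNA of 3 TG and 3 WT pools was measured on 12 arrays of 45281 probes. The authors deposited linear intensity values, called non-normalized per the file headers. The values themselves show earlier background subtraction and scaling: each array held 29.3% to 32.8% negative values, and all had a mean of 472.135. The deposited detection score rose with the signal, so 1 minus the score served as detection p. Log2 values in the authors' deposited table could be matched, with deviations up to 0.00109, by taking log2 of the floored signal minus the 75th percentile of each array and minus each probe's median over the arrays. The labels name no scanner software.

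Signals were corrected with normexp (offset 50), quantile normalised and log2 transformed, and the 2 arrays of a pool were averaged. Because background had been subtracted already, normexp shrinks differences between dim probes. A probe was kept if detected (p below 0.05) on every array of TG, of WT or of both, which left 15708; 17607 to 19118 probes were detected per array. Genotypes were compared with limma 3.58.1 in R 4.3.3 (lmFit and eBayes, two-sided, Benjamini-Hochberg over the kept probes, threshold 0.05). The number of pools limits the precision: with 3 pools a genotype, exact permutation p-values start at 0.1. The procedure was also run on simulated data with independent noise for each probe. That simulation lacked the pool and chip structure of these arrays, so it is no check of the calls.

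Gene names come from the platform's annotation, parts of which may be out of date: 34885 had 1 gene symbol, 18 several and 10378 none here. The kept probe of highest mean over the 12 arrays stood for its gene, and levels were not compared between genes. Log2 differences are TG minus WT. Of the 72 genes, all that passed were named, with the most positive and most negative 6, those nearest the threshold, and the 3 brightest and 3 dimmest; up to 3 genes with the smallest p were named per other list. Mrps25, Mrpl35, Mrpl15, Mrpl38, the paralogues, subunit partners and neighbours of called genes were added after their values were seen. The genes, lists and settings were chosen with earlier results of these data known. Alternatives covered background correction, normalisation, filters, chips, blocks, left-out pools and the probe that stands for a gene.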

Additional observations from a re-analysis of the deposited data

How the results depend on the processing

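The count of 17 called Mrpl and Mrps genes was 10 without background correction, 11 with a correction from detection values, 3 with floored signals scaled to the 75th percentile and 3 in the authors' deposited table. Those counts are 13.9%, 15.3%, 4.17% and 4.17% of the 72, against 22.8%, 25.4%, 21.2% and 19.9% of all genes. The count was 11 on chip 1 alone, 4 on chip 2 alone and 9 with the pool number as a replicate block. Of all genes 24.2%, 10.1% and 21.4% were called in these fits. Leaving out 1 pool at a time gave 7 to 18, lowest without WT2 (6 higher, 1 lower), and it was 9 without TG2, 8 without WT1 and 11 without WT3. The shares of all genes fell too, to 14.5% without WT2, 19.7% without TG2, 17.7% without WT1 and 17.9% without WT3. The number of probes called, 4060, became 1457 on chip 2 alone and lay between 2062 (without WT2) and 4220 with 1 pool left out, at 2588 without WT1 and 2583 without WT3. The median of the 72 genes, 0.04, was -0.040 and that of the Mrps genes was -0.062 with floored signals scaled to the 75th percentile and in the authors' table, in which the median of all genes also fell, to -0.07. With 1 pool left out the medians ran from 0.0044 to 0.05 for the 72 genes, 0.01 to 0.07 for Mrpl and -0.03 to 0.04 for Mrps. Mrpl39 changed sign to -0.0034 without TG3 (up to 0.27 with another pool left out) and to -0.029 with WT1 from chip 1 only and without TG3, and Mrpl57 changed to 0.0048 without WT2 (down to -0.14 with another pool left out); neither gene passed under any setting. Of 500 values of the 25 named genes under 20 alternatives, 372 kept their sign and side of the threshold, 116 lost and 9 gained the call, and 3 changed sign. The cause of these changes was not tested. The share of the genes called stayed below that of all genes in 19 of 20 alternatives, the exception being the fit with no filter on detection. Pools of the same number correlated at -0.42, 0.34 and -0.12 in their deviations from the group means, so the numbers were not taken as pairs. The dimmest probes, near the background, carry the least information.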
